A study of Canis lupus familiaris with 13 samples.

Results

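The RNA levels of 9 genes that prepare peptides for MHC class I were followed through 13 biopsies of dog tumors injected with an immune-stimulating complex. The genes were B2M, TAP1, TAP2, TAPBP, NLRC5, PSMB8, PSMB9, PSMB10 and ERAP1, taken by symbol from a table of 43427 symbols. All 9 symbols were present, and all 9 were among the 20118 genes with enough counts to be tested.

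The biopsies came from 3 companion dogs, and each tumor's own biopsy before treatment served as its baseline, since no untreated tumor was among the samples. All dogs received intratumoral IMAX, a polyethyleneimine-lithocholic acid conjugate (2E′) that carries paclitaxel, a cytotoxic drug, and a cyclic dinucleotide, an agonist of the innate sensor STING. Dog CL had a ductal carcinoma of a cranial mammary gland and a complex carcinoma of a caudal gland, dog BM had a solid mammary carcinoma, and dog RV had a soft tissue sarcoma. The 4 libraries before treatment were 1 from each tumor. The 4 early libraries were taken 2 days after the second dose in RV and 1 week after it in BM and in both CL tumors. The 5 late libraries were taken 1 month (both CL tumors) or 3 weeks (BM) after the second dose, or 2 weeks after the third dose (RV). Late RV was sampled at 2 places of the same mass, where the drug was injected and next to it, called the injection and adjacent sites. The doses, intervals and tumor types therefore differed between dogs within each time group, and both CL tumors came from 1 animal. Each library was a separate biopsy, so the spread between libraries holds differences in the tissue sampled as well as in treatment.

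MHC class I molecules show peptides from inside the cell to CD8 T cells. The proteasome cuts proteins into peptides, and interferons induce the subunits PSMB9, PSMB10 and PSMB8, which replace its catalytic subunits PSMB6, PSMB7 and PSMB5 to form the immunoproteasome. TAP1 and TAP2 pump the peptides into the endoplasmic reticulum, ERAP1 trims them, and TAPBP (tapasin) holds the empty class I molecule at the pump. A loaded molecule needs the light chain B2M to reach the surface, and NLRC5 is the transactivator that drives many of these genes. Tumors often escape T cells by losing parts of this pathway.

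In the RefSeq annotation of UU_Cfam_GSD_1.0 (CanFam4.0), 4 of the 9 genes lay side by side in 30.5 kb of the dog MHC on chromosome 12. TAP2 was at chr12:2562598-2572236, PSMB8 at chr12:2574324-2577715, TAP1 at chr12:2578932-2587126 and PSMB9 at chr12:2587464-2593086. TAPBP lay on the same chromosome at chr12:2895118-2906650. The other genes were spread over the genome, with NLRC5 at chr2:58550596-58630406, ERAP1 at chr3:12916519-12958941, PSMB10 at chr5:82146923-82149454 and B2M at chr30:11616856-11621737. All 9 are protein-coding, and the counts were made per gene symbol, so exons and introns were not separated.

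The libraries held 11622444 to 29931125 counts. The smallest count of the 9 genes was 66, for NLRC5 in RV before treatment, with an exact Poisson 95% interval of 51.0 to 84.0 that covers counting error only. Levels are given in CPM, counts rescaled so that every library has the same total after correction by TMM factors, and are compared between libraries and never between genes, since gene lengths differ. Comparisons used edgeR's quasi-likelihood test, in which each tumor was a block, and an adjusted p is a Benjamini-Hochberg value over all 20118 genes with a threshold of 0.05. Libraries differed in makeup before any gene was tested. The share of counts from ribosomal protein genes was highest in RV before treatment, at 17.8%, and lowest in early RV, at 3.50%, with the other libraries between 5.11% and 14.4%. The summed level of 6 of 9 markers of differentiated epidermis was 1624 CPM in early RV and at most 85.7 CPM elsewhere. The paper diagnosed the early RV biopsy as granulomatous to pyogranulomatous dermatitis, with no tumor cells definitively identified. The 8 fibroblast markers summed to 20927 CPM in RV before treatment and to 2204 CPM early. In BM they summed to 1218 CPM before, 27112 CPM early and 100609 CPM late. The summed level of 8 epithelial markers was 317 CPM in the caudal CL tumor before treatment, below the 983 CPM of the sarcoma RV, whereas the cranial CL tumor had 5107 CPM and BM 3339 CPM. The caudal CL tumor had 712 CPM early and 378 CPM late, and late BM had 195 CPM. The 7 myoepithelial and basal markers, cells that a complex carcinoma also holds, summed to 500 CPM before, 3086 CPM early and 536 CPM late in caudal CL, and to 34.7 to 47.8 CPM in RV except early, at 1132 CPM. The caudal CL sum before treatment was thus below that of RV for simple epithelial markers and above it for myoepithelial and basal ones. Almost all of the RV sum was KRT7, at 957 CPM, beside 20.3 CPM in caudal CL. RV was the lowest library before treatment in EPCAM, KRT8, KRT19, CDH1, ELF3 and ESRP1, at 0.47 to 10.5 CPM. KRT18 was lowest in caudal CL, at 2.09 CPM.

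The first comparison asked whether the pathway was higher early after treatment than before it. All 9 genes had a fitted early level above the level before treatment, with log2 differences of 0.72 to 3.21 and a median of 1.74, beside a median of 0.25 over all genes tested. None of the 9 passed the adjusted threshold, which 0.00497% of all genes (1 gene) passed in edgeR. In DESeq2, TAP1, TAPBP and NLRC5 passed it, as did 5.05% of all genes. At an unadjusted p under 0.05, 5 of 9 were higher (TAP1, TAP2, TAPBP, NLRC5 and PSMB9), and the background for higher genes was 7.7%, within 2184 genes of either direction. The transactivator and the transport and docking genes TAP1, TAPBP and NLRC5 were higher in all 4 tumors (3 of 9, background 10.8%). None of the 9 was lower in all 4 tumors (background 7.9%). Only NLRC5 had early libraries that all lay above all libraries before treatment (1 of 9, background 2.71%), and no gene of the 9 had them all below (background 1.78%).

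**Figure D1:**
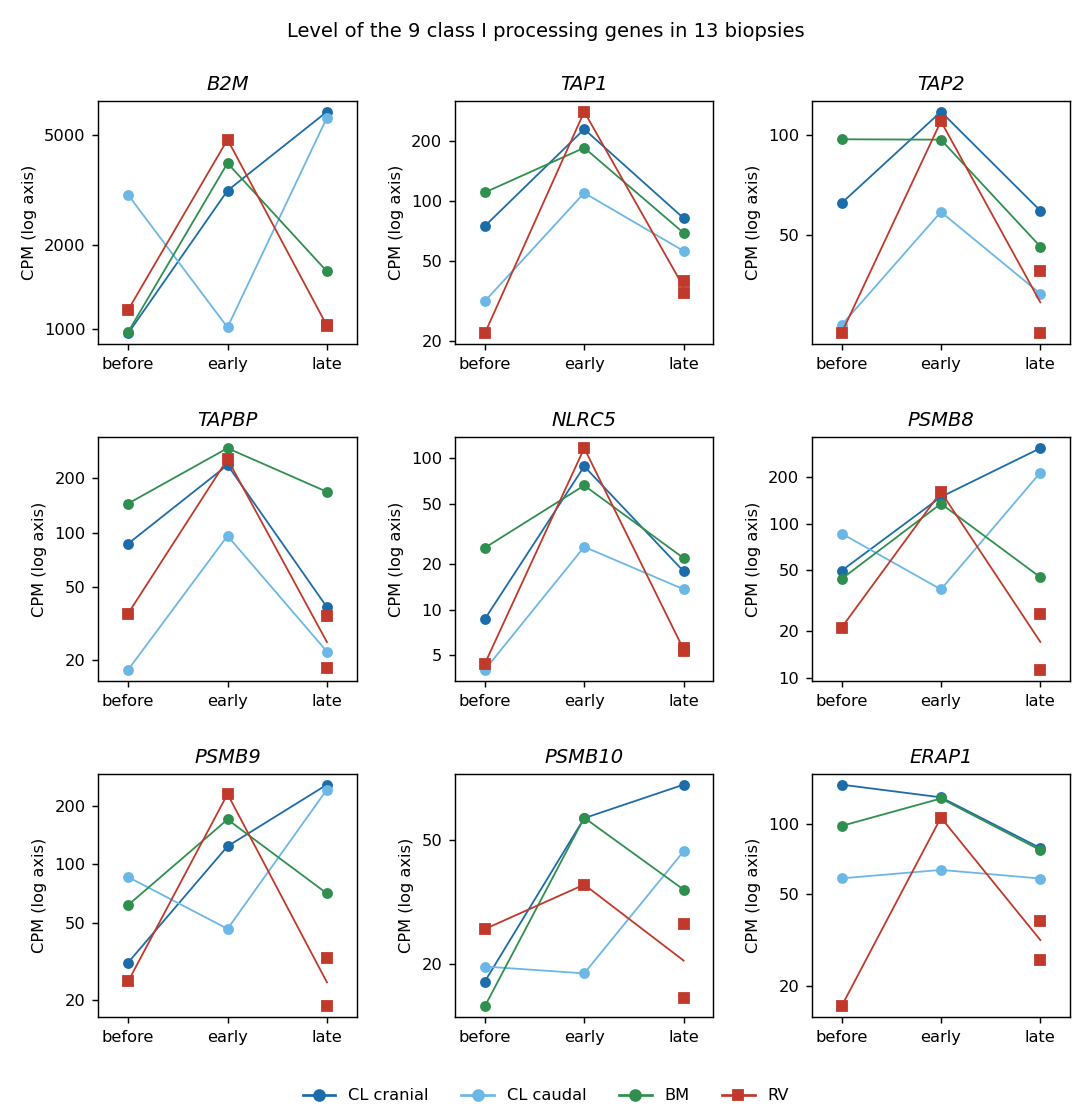
Level of each of the 9 genes (CPM, log axis) by time group, with 1 point per library, circles for the mammary tumors and squares for the sarcoma RV, and lines that join the libraries of a tumor and run to the mean log level of the 2 late RV sites. In NLRC5, TAP1 and TAPBP every line goes up from before to early and down from early to late, whereas in B2M, PSMB8 and PSMB9 the caudal CL line goes the other way and the late CL points are the highest of the panel.

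NLRC5 had the largest early difference of the 9. Before treatment it was at 4.01 CPM in the caudal CL tumor, 8.67 CPM in the cranial CL tumor, 4.40 CPM in RV and 25.6 CPM in BM. Early it was at 26.0, 88.4, 116 and 66.1 CPM in the same order. Late it was at 13.6 CPM in the caudal and 17.9 CPM in the cranial CL tumor, 5.36 CPM at the injection site and 5.56 CPM at the adjacent site of RV, and 21.9 CPM in BM. The early libraries of NLRC5 overlapped neither the libraries before treatment nor the late ones, and the closest pair was early caudal CL with BM before treatment. The log2 difference early against before was 3.21 (SE 0.65, edgeR adjusted p = 0.142), higher in 4 of 4 tumors, by 2.57-fold in BM, 6.35-fold in the caudal and 10.1-fold in the cranial CL tumor, and 25.9-fold in RV. The size of the early difference was therefore very unequal between tumors.

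TAP1 followed NLRC5 closely. It was at 31.5 CPM in the caudal CL tumor, 74.7 CPM in the cranial CL tumor, 21.7 CPM in RV and 110 CPM in BM before treatment. The early libraries held 110, 229, 280 and 184 CPM. The late libraries held 56.1 and 81.9 CPM in the CL tumors, 39.7 and 34.6 CPM at the injection and adjacent sites of RV, and 69.1 CPM in BM. Early TAP1 was thus above every late library, and early caudal CL was about level with BM before treatment. The log2 difference was 1.99 early against before (SE 0.47, edgeR adjusted p = 0.164), with 1.67-fold in BM and 12.8-fold in RV as the extremes.

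TAP2, the partner of TAP1 in the peptide pump, had a smaller early difference of 1.02 (SE 0.38, edgeR adjusted p = 0.377). It was at 26.9, 62.3, 25.4 and 96.9 CPM before treatment in caudal CL, cranial CL, RV and BM. The early values were 58.7, 117, 110 and 96.6 CPM, so that BM was at its earlier level and the other tumors were higher. The late values were 33.4, 59.2 and 46.2 CPM in caudal CL, cranial CL and BM, and 25.4 and 38.9 CPM at the injection and adjacent sites of RV. The time groups of TAP2 overlapped, and without RV its early difference was 0.64.

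TAPBP was at 17.6, 86.8, 35.8 and 144 CPM before treatment in caudal CL, cranial CL, RV and BM, and at 95.9, 235, 253 and 291 CPM early. Late, it was at 22.2, 38.9 and 167 CPM in caudal CL, cranial CL and BM, and at 18.0 and 34.6 CPM at the injection and adjacent sites of RV. BM held the highest level in each time group, and the groups overlapped through it. The log2 difference early against before was 2.0 (SE 0.46, edgeR adjusted p = 0.154), from 2.01-fold in BM to 7.05-fold in RV.

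ERAP1, the peptide-trimming protease, was set apart by RV. Its level in the 3 mammary tumors was 58.2 to 148 CPM before treatment, 63.3 to 130 CPM early and 58.1 to 78.6 CPM late. In RV it was 16.3 CPM before, 106 CPM early, and 26.0 and 38.3 CPM at the injection and adjacent sites late. Early against before, ERAP1 was 6.49-fold higher in RV and between 0.882-fold and 1.31-fold in the mammary tumors. The fitted difference over 4 tumors was 0.72 (SE 0.45, edgeR adjusted p = 0.549), and without RV it was 0.11.

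The light chain and the immunoproteasome subunits differed from the genes above in the caudal CL tumor. B2M was at 3045 CPM in that tumor before treatment and at 964, 1171 and 975 CPM in cranial CL, RV and BM. Early, B2M was at 1014 CPM in caudal CL and at 3155, 4820 and 3962 CPM in cranial CL, RV and BM. The caudal CL tumor thus held the highest of the libraries before treatment and the lowest of the early ones. Its early level was 0.333-fold its level before treatment, and the other tumors were 3.27-fold (cranial CL) to 4.12-fold (RV) higher. Over all 4 tumors the log2 difference was 1.40 (SE 0.77, edgeR adjusted p = 0.521).

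PSMB8 had the same tumor out of step. Before treatment it was at 86.5 CPM in caudal CL, 49.5 CPM in cranial CL, 21.1 CPM in RV and 43.8 CPM in BM. Early it was at 37.5 CPM in caudal CL and at 149, 161 and 135 CPM in cranial CL, RV and BM. The early difference was 0.434-fold in caudal CL and 3.01-fold to 7.60-fold in the other tumors.

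PSMB9, separated from TAP1 by 337 bp, was at 85.8, 31.1, 24.9 and 61.5 CPM before treatment in caudal CL, cranial CL, RV and BM. Early it was at 46.4, 124, 230 and 170 CPM. It was 0.541-fold in caudal CL and 2.76-fold to 9.21-fold in the others. PSMB10 was at 14.6 to 25.9 CPM before treatment and at 18.7 CPM (caudal CL), 58.5 CPM (cranial CL), 35.9 CPM (RV) and 58.7 CPM (BM) early. RV, which had the largest early ratio in PSMB8 and PSMB9, was only 1.39-fold higher in PSMB10. The fitted early differences were 1.74 (SE 0.83) for PSMB8, 1.88 (SE 0.83) for PSMB9 and 1.02 (SE 0.49) for PSMB10, with edgeR adjusted p-values of 0.474, 0.450 and 0.475. Without RV the differences for PSMB8 and PSMB9 were 0.87 and 0.97, and without BM that for PSMB10 was 0.55.

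**Figure D2:**
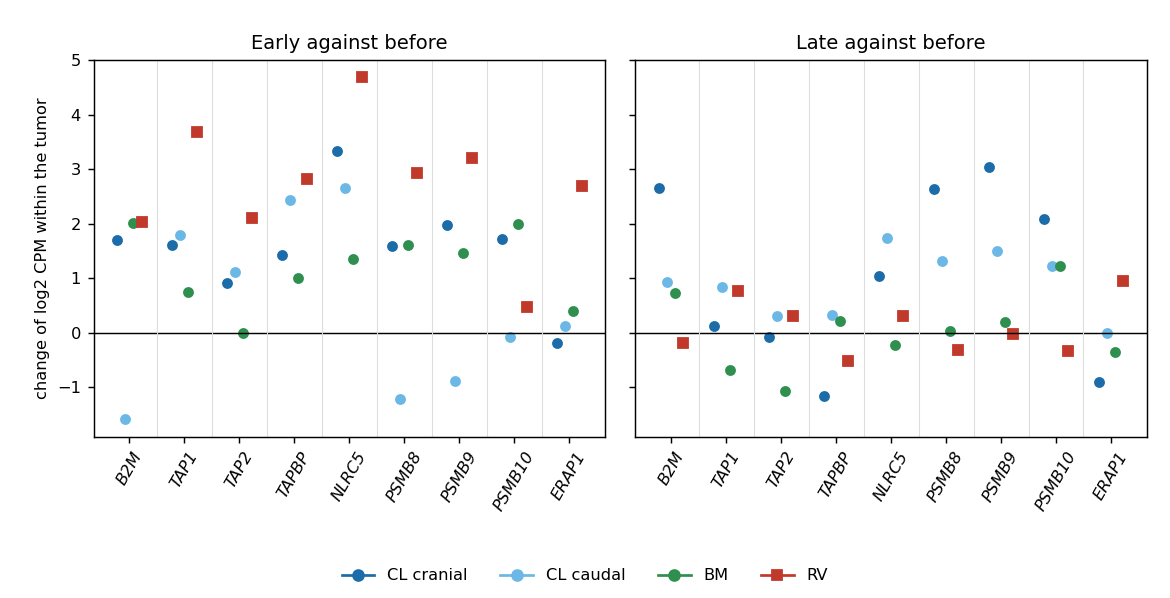
Change of log2 CPM of each of the 9 genes from before treatment within each tumor, early (left) and late (right), with 1 point per tumor, circles for the mammary tumors and squares for the sarcoma RV, whose 2 late sites were averaged. RV is the highest point early for 8 of 9 genes, all but PSMB10, and caudal CL is below 0 early for B2M, PSMB8, PSMB9 and PSMB10.

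Within single tumors, 9 of 9 genes were higher early in RV (median log2 ratio 2.82), 8 of 9 in cranial CL (1.61), 8 of 9 in BM (1.36) and 5 of 9 in caudal CL (0.12). The shares of all genes that were higher in those tumors were 54.5%, 50.5%, 49.1% and 52.7%. Each of these ratios rests on 1 library before treatment and 1 early library. That of RV sets sarcoma tissue against a biopsy in which the paper did not definitively identify tumor cells. The 5 genes higher in caudal CL were TAP1, TAP2, TAPBP, NLRC5 and ERAP1.

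Leukocyte, macrophage and endothelial markers had higher summed levels early than before in each tumor. The summed level of 5 of 5 leukocyte markers was 246 to 394 CPM before treatment, 625 to 2023 CPM early and 204 to 793 CPM late, with no marker at 0 in any library. The 9 macrophage markers summed to 286 to 729 CPM before, 995 to 3375 CPM early and 337 to 1283 CPM late. In RV the macrophage sum was 400 CPM before and 995 CPM early. C1QB and C1QC of that list were each at 28.6 CPM in early RV, below every library before treatment (at least 46.2 and 51.4 CPM). The 8 T cell markers in the table of 9 listed summed to 18.9 to 45.8 CPM before, 38.7 to 562 CPM early and 42.4 to 128 CPM late. The 562 CPM was that of early RV, where CD4 alone was at 516 CPM. Before and early libraries did not overlap in the leukocyte and macrophage sums. In the caudal CL tumor the leukocyte sum was 394 CPM before and 625 CPM early, the smallest early ratio of the 4 tumors, and the 7 neutrophil markers summed to 2193 CPM before and 157 CPM early. Of those 2193 CPM, 1544 CPM were S100A8 and 491 CPM S100A9. In the same tumor FCGR1A was at 71.1 CPM before and 44.7 CPM early. CSF3R and CXCR2 of that list went the other way in this tumor. CSF3R was at 3.91 CPM (96 counts) early, above the median of 2.96 CPM over the libraries before treatment. CXCR2 rested on few reads, at 0.12 CPM (2 counts) before and 0.45 CPM (11 counts) early. In RV the neutrophil sum was 67.1 CPM before and 7148 CPM early. The 7 endothelial markers summed to 44.4 CPM before and 114 CPM early in caudal CL, 119 and 368 CPM in cranial CL, 123 and 210 CPM in RV and 162 and 1719 CPM in BM, and to 55.5 to 274 CPM late. The part of these cells in the levels of the 9 genes was not tested. In bulk tissue, fewer cells of a type and less RNA per cell cannot be told apart.

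The second comparison asked whether the late biopsies differed from those before treatment. No gene of the 9, and no gene of the 20118, passed the adjusted threshold (0%), and 805 genes had an unadjusted p under 0.05 in edgeR. DESeq2 also called none of the 9. None of the 9 had an unadjusted p under 0.05 in either direction, beside 1.28% of all genes higher and 2.72% lower. None of the 9 was higher or lower in all 4 tumors, beside 7.13% and 8.04% of all genes, and none had late libraries that all lay above or all below those before treatment, beside 0.293% and 0.358%. The fitted log2 differences ran from -0.31 (TAPBP) to 1.17 (PSMB9), with a median of 0.60, beside -0.05 over all genes.

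The late levels divided by tumor. B2M was at 5783 CPM in caudal CL and 6074 CPM in cranial CL, above every other library of the series, and at 1613 CPM in BM and 1033 and 1023 CPM at the injection and adjacent sites of RV. PSMB8 was likewise at 215 and 310 CPM in the late CL tumors, at 44.9 CPM in BM and at 25.9 and 11.2 CPM in RV. PSMB9 was at 242, 257, 70.6, 32.7 and 18.5 CPM in the same order. The 2 late CL libraries were the highest of all 13 in these 3 genes, and both came from 1 dog sampled at 1 month, so dog and interval cannot be told apart. The same libraries had the highest sums of 7 B and plasma cell markers of the series, 1101 CPM in caudal and 1385 CPM in cranial CL, beside 52.8 to 821 CPM in the other 11. Before treatment the sums were 452 CPM in caudal and 648 CPM in cranial CL. Most of the cranial CL sum was JCHAIN alone, at 635 CPM before and 1314 CPM late. The sums of 8 cytotoxic and NK cell markers were 92.6 and 124 CPM in late caudal and cranial CL, beside 9.39 and 9.05 CPM before treatment. The other late libraries had 27.4 to 42.2 CPM. The part of these cells was not tested either. PSMB10 was at 45.8 and 74.9 CPM in the late CL tumors, 34.6 CPM in BM, and 26.9 and 15.6 CPM in RV. The late ratio to the level before treatment was 1.90-fold and 6.30-fold for B2M and 2.82-fold and 8.24-fold for PSMB9 in caudal and cranial CL, and in RV it was 0.878-fold and 0.990-fold. With both CL tumors left out, a choice made after seeing the data, the median late log2 difference of the 9 genes was -0.17.

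The next comparison set late against early. The peptide pump, tapasin, NLRC5 and ERAP1 were lower late in all 4 tumors (5 of 9, background 17.4%), and the same 5 had an unadjusted p under 0.05 (background for lower genes 17.7%, within 5355 genes of either direction). None of the 9 passed the adjusted threshold in edgeR, beside 0.00994% of all genes (2 genes). The nearest to it were TAPBP with a log2 difference of -2.31 (SE 0.43), NLRC5 with -2.62 (SE 0.58) and TAP1 with -1.84 (SE 0.42), each at an edgeR adjusted p of 0.0603, and they were followed by TAP2 with -1.20 (SE 0.35, adjusted p = 0.0762) and ERAP1 with -0.93 (SE 0.41, adjusted p = 0.177). Without a filter on low counts TAPBP, NLRC5 and TAP1 and 3.06% of all genes passed the threshold, and in DESeq2 the same 3, TAP2 and 23.9% of all genes did. Without RV the differences were -1.61 for NLRC5 and -0.52 for ERAP1. The late libraries of TAP1 and NLRC5 all lay below all early ones (2 of 9, background 4.49%), and no gene of the 9 had them all above (background 5.74%) or was higher late in all 4 tumors (background 13%). B2M, PSMB8, PSMB9 and PSMB10 had fitted differences of -0.46, -0.78, -0.72 and -0.10, and each was higher late in both CL tumors and lower late in BM and RV. The median of the 9 was -0.93, beside -0.35 over all genes. This comparison and the first share the early libraries, and the first 2 share the libraries before treatment.

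Immunoproteasome subunits take the place of constitutive ones, so each was also set against the subunit it replaces within the same library, which needs no scaling between libraries. PSMB8 replaces PSMB5, PSMB9 replaces PSMB6 and PSMB10 replaces PSMB7. Transcript lengths differ between the genes of a pair, so only differences in the ratio between libraries are read. The log2 ratio of counts of PSMB10 to PSMB7 was higher early than before in 4 of 4 tumors, by 1.81 ± 0.37 (SD, n = 4 tumors), from 2.40-fold in caudal CL to 4.29-fold in cranial CL. PSMB9 to PSMB6 was higher in 4 of 4, by 1.98 ± 2.13, from 1.20-fold in caudal CL to 29.6-fold in RV. PSMB8 to PSMB5 was higher in 3 of 4, by 1.58 ± 1.75, from 0.763-fold in caudal CL to 14.5-fold in RV. PSMB10 to PSMB7 thus had the most even difference over the tumors, with an SD of 0.37 on the log2 scale.

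With 4 tumors the exact two-sided sign-flip permutation test cannot go below about 0.12, so it could not pass 0.05. It gave 0.12 for PSMB10 to PSMB7 and PSMB9 to PSMB6 and 0.25 for PSMB8 to PSMB5, and all 3 were 0.375 after adjustment over the 6 comparisons. Late against before, the mean log2 differences were 0.02 ± 1.51 for PSMB8 to PSMB5, 0.03 ± 1.41 for PSMB9 to PSMB6 and 0.50 ± 0.65 for PSMB10 to PSMB7 (SD, n = 4 tumors), with exact p-values of 1, 1 and 0.25. The late means near 0 for the first 2 pairs hid opposite tumors. In BM the late ratios were 0.260-fold and 0.243-fold those before treatment, and in caudal CL they were 2.39-fold and 2.09-fold. The paper described the late BM mass as mineralized in its center, with features of osteosarcoma and a reading of carcinosarcoma. The part of this tissue in the late BM ratios was not tested.

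**Figure D3:**
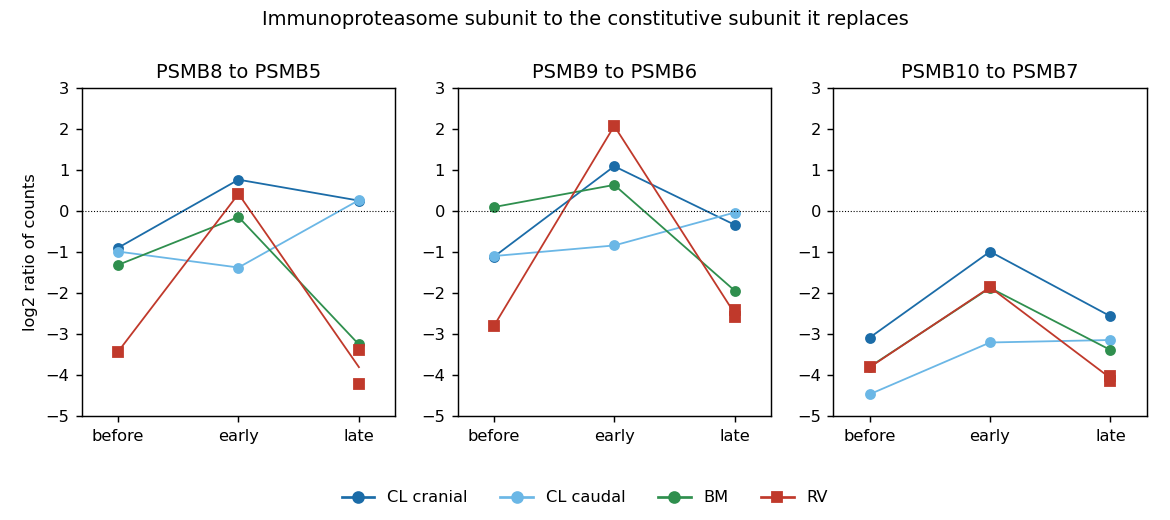
Log2 ratio of the counts of each immunoproteasome subunit to the constitutive subunit it replaces, by time group, with 1 point per library, squares for the sarcoma RV, and lines that join the libraries of a tumor and run to the mean of the late RV sites. All 4 lines go up early for PSMB10 to PSMB7 and PSMB9 to PSMB6, and the caudal CL line alone goes down early for PSMB8 to PSMB5.

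The ratios moved through different subunits in different tumors. In caudal CL early PSMB10 and PSMB9 were below their level before treatment, as given above, and PSMB7 was at 437 CPM before and 173 CPM early and PSMB6 at 183 and 82.9 CPM. In BM the constitutive subunits were not lower early, with PSMB5 at 109 and 149 CPM, PSMB6 at 57.3 and 109 CPM and PSMB7 at 205 and 215 CPM. In cranial CL and RV all 3 were lower early, with PSMB7 at 150 and 116 CPM in cranial CL and 365 and 130 CPM in RV. PSMB5, PSMB6 and PSMB7 belong to the 14 listed subunits of the constitutive 20S core, all of which had a fitted early level below that before treatment (0 of 14 above 0, median log2 difference -0.67, beside 0.25 over all genes). Only PSMA5 and PSMA6 of them were lower in all 4 tumors, beside 7.9% of all genes. Of the 14, 1 was lower at an unadjusted p under 0.05, beside 3.16% of all genes, and none passed the adjusted threshold. The subunit with that p was PSMA3, at -1.02 (SE 0.44, edgeR adjusted p = 0.447), followed by PSMA5 at -0.81 (SE 0.40, adjusted p = 0.489) and PSMB7 at -0.82 (SE 0.41, adjusted p = 0.492). Late against early, 14 of 14 had a fitted level that was higher, with a median of 1.28, beside -0.35 over all genes. Of these, 13 were higher in all 4 tumors, beside 13% of all genes. An unadjusted p under 0.05 was found for 11, beside 8.87% of all genes, with none past the adjusted threshold. The constitutive core and TAP1, TAP2, TAPBP, NLRC5 and ERAP1 thus had fitted differences of opposite sign in both steps. In the cranial CL tumor, for example, PSMB6 was at 67.3 CPM before, 57.7 CPM early and 323 CPM late.

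Across the 13 libraries, the log2 levels of the 9 genes grouped into 2 sets, which were chosen after the values were seen and are described with no test. Within B2M, PSMB8, PSMB9 and PSMB10, Pearson's r ran from 0.77 to 0.96 over 6 pairs (median 0.86). Within TAP1, TAP2, TAPBP, NLRC5 and ERAP1 it ran from 0.71 to 0.97 over 10 pairs (median 0.86), with TAP1 and NLRC5 at the top. Between the sets it ran from 0.09 (B2M and TAPBP) to 0.64 (PSMB9 and NLRC5) over 20 pairs (median 0.43). With each tumor's own mean removed, the 3 medians were 0.90, 0.87 and 0.41. The libraries share tumors, dogs and scaling factors, so they are not independent points.

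**Figure D4:**
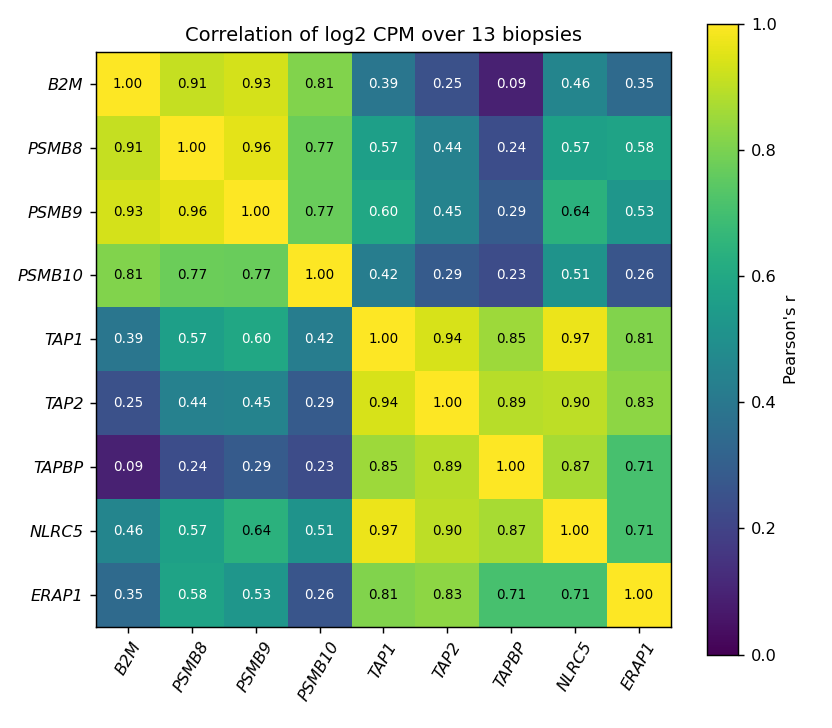
Pearson's r between the log2 CPM of each pair of the 9 genes over 13 libraries, with B2M and the PSMB genes in one corner and TAP1, TAP2, TAPBP, NLRC5 and ERAP1 in the other. The lowest r within a set is 0.71 and the highest between the sets is 0.64.

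Genes that lie together on the chromosome were split between the sets. TAP1 and PSMB9 are neighbors with no annotated gene in between, and the log2 ratio of PSMB9 to TAP1 counts still ran from -1.26 to 2.11 over the libraries. PSMB8 lies between TAP2 and TAP1, and its r was 0.44 with TAP2 and 0.57 with TAP1, beside 0.91 with B2M on another chromosome.

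The mean log2 CPM of the first set minus that of the second was 2.83 in caudal CL before treatment, 3.42 in caudal CL late and 3.17 in cranial CL late, and between -0.07 and 1.89 in the other 10 libraries. These 3 libraries were also among the high ones in the share of counts from ribosomal protein genes, at 13.6%, 12.5% and 12.6%. Over 13 libraries the difference had a Pearson's r of 0.71 and a Spearman's rho of 0.74 with that share. RV before treatment had the highest share, 17.8%, with a difference of 1.89. The difference had an r of -0.32 with the level of genes of short span minus that of genes of long span. The part of library composition in the division of the 9 genes was not tested.

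**Figure D5:**
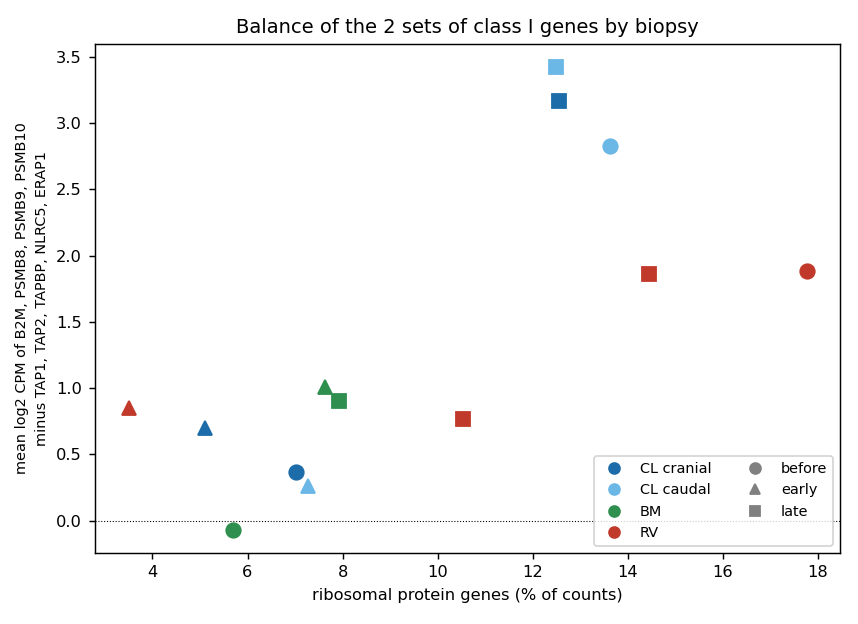
Mean log2 CPM of B2M, PSMB8, PSMB9 and PSMB10 minus that of TAP1, TAP2, TAPBP, NLRC5 and ERAP1 in each library against the share of its counts from 80 ribosomal protein genes, with color for the tumor and shape for the time group. The 3 CL libraries at 2.83 or above lie between 12.5% and 13.6%, and the 4 early libraries lie at 7.64% or below on the x axis.

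The heavy chains that B2M pairs with had early levels above those before treatment. Of the names listed for them, 3 were in the table, and they are paralogs, so reads may have been split or shared between them. DLA88, the classical dog class I gene, was at 237 to 588 CPM before treatment, 561 to 3697 CPM early and 560 to 1265 CPM late. Its log2 difference early against before was 2.17 (SE 0.52, edgeR adjusted p = 0.166), higher in 4 of 4 tumors and highest in RV. DLA-64 was at 53.8 to 344 CPM before, 257 to 1044 CPM early and 69.5 to 660 CPM late, with a difference of 2.44 (SE 0.58, adjusted p = 0.166), also in 4 of 4 tumors. DLA-79 had a difference of 1.57 (SE 0.69, adjusted p = 0.450) in 3 of 4. In the caudal CL tumor DLA88 was at 237 CPM before and 561 CPM early, and DLA-64 at 92.0 and 257 CPM, whereas DLA-79 was at 36.6 and 31.1 CPM and the light chain B2M at 3045 and 1014 CPM. In that tumor DLA88 and DLA-64 were thus higher early, and DLA-79 and B2M lower.

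Other parts of the pathway were taken from lists. Of 14 transcription factors of class I promoters, 4 were higher early at an unadjusted p under 0.05 and none lower (background 7.7% higher and 3.16% lower), with a median log2 difference of 0.61, and none passed the adjusted threshold. IRF1, an interferon-induced activator of these promoters, was at 9.15 to 46.2 CPM before and 33.4 to 251 CPM early, with a difference of 2.10 (SE 0.47, edgeR adjusted p = 0.154). IRF8, another factor of the same family, had 1.67 (SE 0.47, adjusted p = 0.242). IRF1 and IRF8 were both higher in 4 of 4 tumors. IFNG, the type II interferon that induces many genes of this pathway, had 0 to 32 counts per library before treatment, 2 to 62 early and 0 to 16 late, so its level rests on few reads. It was higher early in 3 of 4 tumors and lower in BM, with 32 counts before and 2 early. IFNGR2, a chain of its receptor, was at 0.87 (SE 0.39, adjusted p = 0.455), and SOCS1, a feedback inhibitor of the signal, at 1.25 (SE 0.66, adjusted p = 0.507).

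Of 9 listed genes of peptide loading, editing and trimming other than the 9 of interest, 1 was higher early at an unadjusted p under 0.05, a share near the 7.7% of all genes. It was TAPBPL, a tapasin relative that edits peptides, at 1.33 (SE 0.49, edgeR adjusted p = 0.377), higher in 4 of 4 tumors. The trimming protease ERAP2 was at 0.99 (SE 0.65, adjusted p = 0.565) and UGGT1, which checks the folding of glycoproteins, at -0.41 (SE 0.35, adjusted p = 0.634). The median of that list was 0.25, beside 0.25 over all genes. Of 8 proteasome activators and assembly factors, 2 were lower at an unadjusted p under 0.05, the assembly chaperones PSMG1 (-1.30, SE 0.48, adjusted p = 0.368) and PSMG4 (-1.24, SE 0.51, adjusted p = 0.427), beside a background of 3.16% for lower genes. A further assembly chaperone, PSMG3, was at -0.43 (SE 0.33, adjusted p = 0.608). The interferon-inducible activators PSME1 and PSME2 had early differences of -0.11 and -0.21. No gene of these lists passed the adjusted threshold.

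The last comparison set the sarcoma RV against the 3 mammary tumors. The early log2 difference in RV minus the mean of the mammary tumors was 2.60 for ERAP1 (SE 0.71, edgeR adjusted p = 0.0988), 2.34 for TAP1 (SE 0.75, adjusted p = 0.116) and 2.30 for NLRC5 (SE 0.97, adjusted p = 0.182). These 3 of 9 had an unadjusted p under 0.05, beside 16.7% of all genes higher in RV. None of the 9, and no gene, passed the adjusted threshold (0%), with 4908 genes at an unadjusted p under 0.05 in edgeR. In DESeq2, TAP1, ERAP1 and 17.1% of all genes passed. The other differences ran from -0.82 (PSMB10) to 2.24 (PSMB9). RV has 1 library before and 1 early, and it was sampled at 2 days and the mammary tumors at 1 week, so tumor type, dog, interval and biopsy cannot be told apart. Its early library was also the one with the epidermal and neutrophil markers.

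For the late step, the differences between RV and the mammary tumors ran from -1.79 (PSMB10) to 1.39 (ERAP1), with edgeR adjusted p-values of 0.998 to 1. No gene passed (0%), and 545 genes had an unadjusted p under 0.05, none of them among the 9, beside 1.55% of all genes higher and 1.16% lower in RV. DESeq2 called none of the 9 either. The 2 late RV sites were furthest apart in PSMB8, with 25.9 CPM at the injection site and 11.2 CPM at the adjacent site, and nearly equal in B2M and NLRC5.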

How the data were processed

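RNA-seq raw counts per gene symbol were deposited by the authors for all 13 libraries, made from strand-specific libraries aligned to CanFam4.0 with Strand NGS and not normalized. The counting rule, the annotation and the handling of reads shared by several genes are not given in the sources used here. The submitters' processing notes also name edgeR. Of the symbols, 98% matched RefSeq (UU_Cfam_GSD_1.0), which gave positions and gene spans.

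Libraries were grouped by tumor and by time from the labels. Genes were filtered with filterByExpr (minimum count 10), scaled by TMM and tested with glmQLFit (robust) and glmQLFTest in edgeR 4.0.16 (R 4.3.3), with time and tumor in the model and 7 residual degrees of freedom, or 5 with separate early and late terms for RV. A single library of a tumor at a time was assumed to vary like the others. Log2 CPM used a prior count of 2, and subunit ratios were log2 ratios of counts plus 2, with the 2 late RV sites averaged. Common biological variation was 0.67 (coefficient of variation), and each pair of libraries differed beyond sampling noise (lowest chi-square 44.5 per degree of freedom). The scripts were tested on simulated data, with pass checks only at a smaller spread than that of these data.

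The block is the tumor biopsied repeatedly. Libraries of 1 tumor deviated together on average, with a mean correlation of deviations of 0.23 between before and early (lowest -0.05), 0.59 between before and late (lowest 0.32) and 0.19 between early and late (lowest -0.10). Between tumors the means were -0.07, -0.20 and -0.07.

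The 9 genes and all lists were chosen with earlier results of these data known. All 9 are named in each comparison, with PSMB5, PSMB6 and PSMB7 in the ratios. From each pathway list, up to 3 genes with the smallest early unadjusted p were named, except for 1 gene that is not reported here, and the 10 genes most like the 9 by correlation. PSME1, PSME2 and IFNG, which are list members outside that rule, were named after their values were seen. Alternatives were DESeq2 1.42.0, its size factors within edgeR, all genes without a low-count filter, a model without the block, dog as block, CL tumors summed or averaged, late RV sites summed or single, 2 time points only, a prior count of 0.5, and each tumor left out. Leaving out dog CL, the early RV library or the caudal CL library before treatment was chosen after seeing the data. Ratios and figures were computed in Python 3.11.15 (matplotlib 3.10.9, pandas 2.3.3, numpy 2.4.6).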

Additional observations from a re-analysis of the deposited data

Results flagged for a closer look

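In 3 of 36 groups of libraries examined, 1 library stood far from the rest of its group, where chance alone would give about 1.8. B2M before treatment was at 11.57 log2 CPM in the caudal CL tumor and at 9.91 to 10.2 in the other tumors. PSMB8 early was at 5.23 log2 CPM in the caudal CL tumor and at 7.08 to 7.33 in the others. The log2 ratio of PSMB8 to PSMB5 before treatment was -3.43 in RV and -1.31 to -0.89 in the mammary tumors.

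In 5 of the 9 genes the late log2 difference from before treatment had one sign in RV and the other in all 3 mammary tumors, of which 2 are from 1 dog. Of all genes tested, 7.07% were lower in RV and higher in the 3 mammary tumors, as 4 of the 9 were, and 8.85% were the other way, as 1 of the 9 was. Some of the signs rest on values near 0. It was -0.19 for B2M in RV (0.73 to 2.66 in the mammary tumors), -0.30 for PSMB8 (0.04 to 2.64), -0.015 for PSMB9 (0.20 to 3.04) and -0.33 for PSMB10 (1.22 to 2.09). ERAP1 went the other way, at 0.95 in RV and -0.91 to -0.0021 in the mammary tumors. The test of each difference itself gave an edgeR adjusted p of 0.998, so none was shown to differ between tumor types. The log2 ratio of PSMB10 to PSMB7 had a late difference of -0.26 in RV and of 0.41 to 1.33 in the mammary tumors, and that difference was not tested.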

How the results depend on the processing

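Of the 9 genes, DESeq2 called 3 early against before, 4 late against early and 2 for RV against the mammary tumors early, and no filter on low counts called 3 late against early, where edgeR called 0. Without a tumor, calls were 0 in the first 3 comparisons and 0 to 1 for RV early. The genes higher early at an unadjusted p under 0.05 numbered 3 in place of 5 with no replicate block, with 2 time points only, without the early RV library and without the caudal CL library before treatment, and 3 to 7 with a tumor left out. Late against before they numbered 1 with late RV sites summed and 0 to 2 with a tumor left out. The replicate block ended no adjusted call. Medians of the 9 genes with a tumor left out ran from 0.97 to 1.95 early, 0.22 to 0.82 late against before, -1.41 to -0.52 late against early, 1.5 to 2.37 for RV early and -1.19 to -0.076 for RV late.

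Directions that turned were all of differences that no test called. Without the block, TAP1 was -0.082 late against before and PSMB8 0.0076 late against early, and with late RV sites summed PSMB10 was 0.034 late against early. Without both CL tumors the late against before values were -0.17 for TAP1, -0.18 for NLRC5, -0.18 for PSMB8, -0.0035 for PSMB9 and 0.17 for ERAP1, with a median of -0.17, and the late against early median was -2.30. Without the early RV library, late against early was 0.25 for B2M, 0.33 for PSMB8 and 0.44 for PSMB9. With a tumor left out, late against early ran from -0.98 to 0.50 for B2M, -1.48 to 0.60 for PSMB8, -1.41 to 0.71 for PSMB9 (each positive without RV) and -0.44 to 0.25 for PSMB10 (positive without BM or RV), and late against before from -0.060 to 0.48 for TAP1 (negative without caudal CL), -0.33 to 0.14 for TAP2 (positive without BM) and -0.41 to 0.045 for ERAP1 (positive without cranial CL). The late PSMB8 to PSMB5 ratio was -0.37 with CL averaged, -0.083 at the adjacent RV site and -0.39 to 0.68 with a tumor left out, and PSMB9 to PSMB6 was -0.27 with CL averaged and -0.32 to 0.72 with a tumor left out. The causes were not tested. DESeq2's size factors moved the median of all genes for RV against mammary tumors early from 0.11 to 0.29.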

Other observations

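The genes whose log2 level over the 13 libraries was most like the mean standardized level of the 9 were DLA-64, a class I heavy chain, with a Pearson's r of 0.97, and XAF1, an interferon-induced gene, also with 0.97. ARHGAP25, MGAM2, NRROS, SECTM1, CMTM7, GIMAP6, CMIP and SQOR followed with r from 0.96 down to 0.94. These values are a description over libraries that share tumors and scaling factors. MGAM2 had as few as 1 count in a library and XAF1 as few as 25, so their low ends rest on few reads.

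The symbol DLA-12a, annotated as a class I pseudogene and looked at after its values were seen, had 0 or 1 count in every library.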
